A study of Micromonas commoda with 15 samples.

Results

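The comparison set cultures of Micromonas commoda exposed to engineered zinc oxide nanoparticles (ZnO ENP) against cultures given the zinc salt ZnSO4. It rests on 6 of the 15 libraries in the series, 3 per group, and on all 10300 gene models in the count table. M. commoda is a marine green picoalga, and per the labels every culture was of strain RCC299 (also labelled Noum17), kept in L1 medium under alternating light and dark, and exposed for 48 h before collection. The labels give the particles as 1e-05 M, with zinc at 0.8 mg/L, and the salt as the equivalent amount of metal. By atomic mass those 2 figures do not describe the same amount of zinc, so how closely the salt matched the particles is uncertain, and the zinc dissolved or taken up was not analysed here. The other libraries, used for reference, came from cultures with Fe2O3 particles, with FeCl3, and with no added particle or salt (control), 3 each. The labels give the Fe2O3 particles as 3e-05 M, with the metal at 2.4 mg/L, more than for ZnO. Metal and labelled amount therefore cannot be told apart wherever zinc is set against iron below. The labels do not state whether the 3 libraries of a group came from separately grown cultures, so the p-values measure the spread between these libraries, which may be partly technical.

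Zinc is a trace nutrient for phytoplankton, a cofactor of enzymes such as carbonic anhydrase, and is toxic in excess. A dissolved salt gives zinc ions at once, whereas ZnO particles can release ions, aggregate, and touch the cell surface as solids, so a particle is commonly set against a salt of its metal. L1 is a seawater medium that already holds trace metals, zinc among them, together with a chelator, so no group was free of zinc.

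The identifiers in the table are numbers of predicted gene models. None (0) of the 10300 matched the locus tags, symbols or accessions of the 10125 genes in the RefSeq table of assembly ASM9098v2, and the files pair them with no names. Nothing can therefore be said about pathways, and identifiers are printed for only 4 models. Total counts were 36161822, 36803901 and 42826804 in the ZnO libraries, against 42760570, 46866621 and 41622282 in the ZnSO4 libraries. The remaining libraries held between 33473041 and 48969454 counts.

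The 2 zinc exposures gave clearly separate transcript profiles. The root mean square difference in log2 CPM (counts scaled to a fixed library total, with the library sizes corrected for composition by TMM, the trimmed mean of M-values) ran from 0.729 to 0.842 over the 9 pairs of a ZnO and a ZnSO4 library. Within ZnO it ran from 0.235 to 0.296, and within ZnSO4 from 0.282 to 0.404. ZnSO4 replicate 1 lay farthest from the other salt libraries, at 0.352 and 0.404. Biological variation between libraries of a group, as edgeR estimates it (a common coefficient of variation), was 9.49% for ZnO and 14.4% for ZnSO4. On the first principal component of the 6 libraries, which held 81.3% of the variance, ZnO libraries scored 36.5 to 39.0 and ZnSO4 libraries -42.0 to -33.6.

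Of 10012 models tested, 4308 (43.0%) passed a 5% false discovery rate between ZnO and ZnSO4 (edgeR, quasi-likelihood F test, Benjamini-Hochberg). Higher with ZnO were 2261 models (22.6%) and lower 2047 (20.4%). Each library pools the RNA of a whole culture, so fewer cells expressing a model and less RNA of it per cell cannot be told apart. Most differences were small: the median called model differed 1.73-fold, and 2864 called models (66.5%) differed less than 2-fold. At least 2-fold higher with ZnO were 655 models (6.54%), and at least 2-fold lower were 789 (7.88%). At least 4-fold differences covered 114 models higher (1.14%) and 153 lower (1.53%). The 3 ZnO and 3 ZnSO4 libraries did not overlap for 6347 models (63.4%), with ZnO above for 3365 (33.6%) and below for 2982 (29.8%). Of these, 2058 were not called.

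The division into higher and lower depended on how the libraries were scaled. The median log2 fold change was 0.014 with TMM, and -0.14 with total counts as the only scaling, which gave 1287 models higher and 2768 lower, 4055 in all. TMM measures every library against 1 reference library. Taking any of the 6 zinc libraries as that reference put the median between -0.0067 and 0.005, and taking a control library put it between -0.16 and -0.12. Leaving out any 1 of the 6 zinc libraries, after which edgeR took control replicate 2 as that library, gave 1296 to 1512 models higher and 2164 to 2335 lower. The 4 models printed below, and the folds of 2 and more, are given relative to a median near 0.

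Many models were alike in both exposures to within a stated bound. For 2632 models (26.3%) the 95% interval of the fold change lay inside 1.5-fold in either direction, and 111 of these were called as small differences. Fitting the 6 zinc libraries alone placed 3716 models inside that bound, and adding a block for replicate numbers to that fit placed 4152. A further 3183 models (31.8%) were neither called nor held within the bound, so for them these libraries show neither a difference nor likeness. The share called depended on abundance. In the lowest of 5 equal classes of mean level, 0.092 to 4.61 CPM, 32.6% of models were called and 6.24% held within 1.5-fold, against 48.8% called and 38.4% held in the fourth class, 30.5 to 91.0 CPM. In the highest class, above that, 590 models were higher with ZnO and 342 lower.

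**Figure D1:**
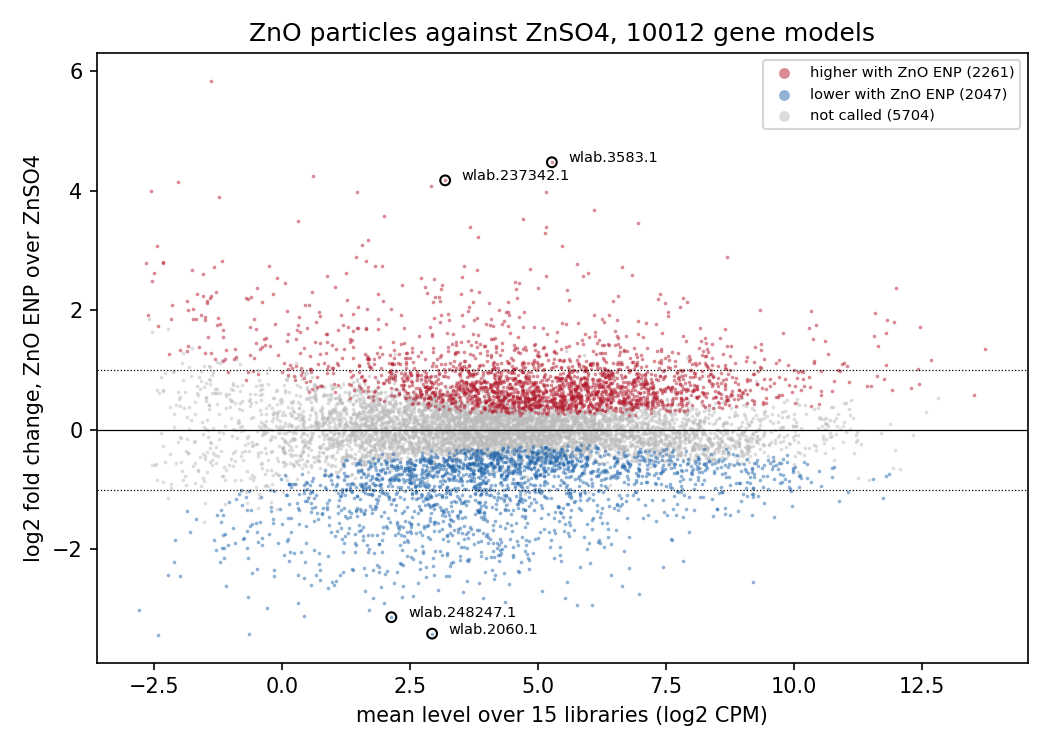
Log2 fold change of ZnO ENP over ZnSO4 (vertical axis) against mean level over 15 libraries in log2 CPM (horizontal axis), 1 point per gene model; dotted lines mark 2-fold differences and circles the 4 printed models. Called models lie on both sides of 0, with 2261 higher and 2047 lower with ZnO.

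The model ranked first for its excess in ZnO cultures was wlab.3583.1. The ranking took models past the threshold whose mean over the 6 libraries reached 5 CPM and whose groups did not overlap. Its level was 70.6, 108 and 116 CPM in ZnO libraries, against 3.90, 5.19 and 4.08 CPM in ZnSO4 libraries. Every ZnO library was far above every salt library. Lack of overlap was a condition of the ranking for all printed models, and 63.4% of all models met it. The means were 98.1 ± 24.3 CPM with ZnO and 4.39 ± 0.70 CPM with ZnSO4 (SD, n = 3 each), a 22.3-fold difference (log2 fold change 4.48, SE 0.313, edgeR adjusted p = 2.53e-07). Control cultures had 6.64 ± 0.53 CPM, so the salt stood near the unexposed level. The salt's log2 fold change over control was -0.60 (edgeR adjusted p = 0.0908).

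The same model was high with iron oxide particles, which share no library with the zinc groups. It had 68.1, 105 and 56.8 CPM with Fe2O3, against 3.89, 7.93 and 8.76 CPM with FeCl3. The 3 Fe2O3 libraries lay above the 3 FeCl3 libraries, at a log2 fold change of 3.49 (SE 0.299). The difference between the zinc and the iron contrast was 0.99 (SE 0.392) and did not pass the threshold (edgeR adjusted p = 0.0708).

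The second, wlab.237342.1, was called below control with the salt, while the first was not. It had 8.54, 15.5 and 17.2 CPM with ZnO, against 0.858, 0.847 and 0.575 CPM with ZnSO4, where each library held only 32 to 46 of its reads. The difference was 18.1-fold (log2 fold change 4.18, SE 0.483). Control cultures lay between the zinc groups, at 2.47, 6.91 and 2.38 CPM. Against control, the log2 fold change was 1.80 (SE 0.424) with ZnO and -2.38 (SE 0.481) with ZnSO4, with edgeR adjusted p-values of 0.00172 for ZnO and 0.000655 for ZnSO4. With Fe2O3 it averaged 23.3 ± 10.6 CPM and with FeCl3 3.57 ± 1.05 CPM.

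The model furthest below the salt, wlab.2060.1, was highest in ZnSO4 cultures among the 5 groups. It had 2.74, 2.70 and 3.36 CPM with ZnO, against 21.5, 35.7 and 36.5 CPM with ZnSO4. The lowest salt library was several times the highest ZnO library. The difference was 10.6-fold (log2 fold change -3.41, SE 0.632, edgeR adjusted p = 0.000505). Fe2O3 cultures averaged 1.35 ± 0.509 CPM and FeCl3 cultures 0.454 ± 0.119 CPM, while control libraries spread from 0.085 to 3.64 CPM. In iron the particle was not lower than the salt, at a log2 fold change of 1.56 (SE 0.771, edgeR adjusted p = 0.0978).

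The second of this kind, wlab.248247.1, rose in both zinc groups and far more with the salt. Its levels were 2.13, 1.98 and 1.46 CPM with ZnO, against 26.7, 8.43 and 13.8 CPM with ZnSO4. The salt libraries differed among themselves, replicate 1 being highest. The difference was 8.78-fold (log2 fold change -3.13, SE 0.380), and without ZnSO4 replicate 1 the log2 fold change was -2.74. Over control, at 0.568 ± 0.213 CPM, the log2 fold change was 1.69 (SE 0.442) with ZnO and 4.82 (SE 0.437) with ZnSO4, with edgeR adjusted p-values of 0.0036 for ZnO and 3.69e-07 for ZnSO4. Fe2O3 cultures, at 2.00 ± 0.497 CPM, were at the level of ZnO cultures.

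**Figure D2:**
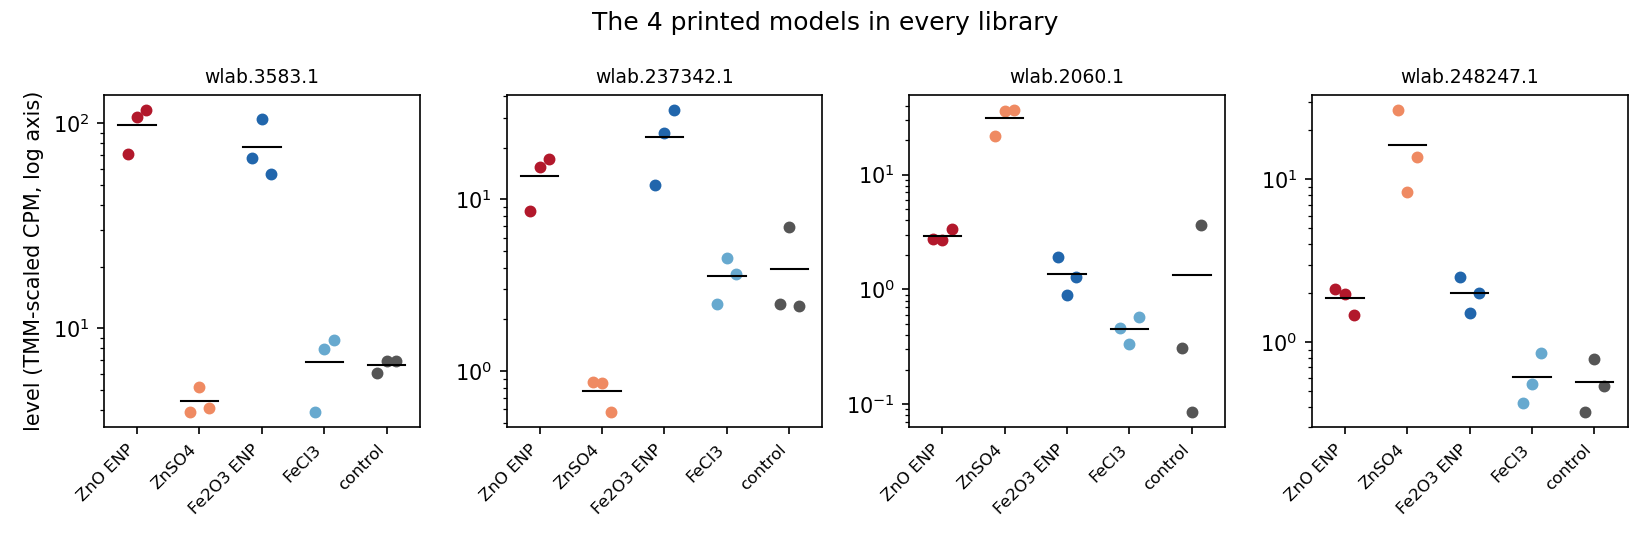
Level of the 4 printed models in TMM-scaled CPM (logarithmic vertical axis) in each library, with a bar at the group mean. The first 2 are high with both particles, and the last 2 are highest with ZnSO4, at means of 31.2 and 16.3 CPM.

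The 10 models ranked highest in each direction repeat these patterns. They were chosen by the zinc difference itself, which is given as a description. The 10 higher with ZnO were 9.84-fold to 22.3-fold apart. Their median log2 fold change over control was 3.79 with ZnO, -0.31 with ZnSO4, 4.45 with Fe2O3 and 0.63 with FeCl3. In iron, 9 of the 10 were called higher with the particle than with the salt, as were 27.5% of all models. The tenth was far below control with the zinc salt and had 139 CPM with ZnO, 12.5 CPM with ZnSO4, 195 CPM with Fe2O3, 165 CPM with FeCl3 and 111 CPM in control cultures. The 10 lower with ZnO were 6.99-fold to 10.6-fold apart. Their log2 fold changes over control ran from 2.77 to 4.82 with ZnSO4 and from -0.16 to 1.69 with ZnO. All 10 differed between zinc and iron in the interaction test, which called 28.3% of all models. That test contains the zinc difference by which the models were chosen, which favours a call. Of the 10 higher with ZnO it called 2. In iron 8 of the 10 lower with ZnO were called higher with the particle.

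Iron offers a comparison from other libraries, and it divides the 655 models that were at least 2-fold higher with ZnO than with ZnSO4. Of all models tested, 27.5% were called higher and 27.7% lower with Fe2O3 than with FeCl3. Among the 655, 507 (77.4%) were called higher with Fe2O3, 138 were not called in iron, and 10 were called lower. In the 507 the median log2 fold change over control was 1.47 with ZnO, -0.085 with ZnSO4, 1.81 with Fe2O3 and 0.34 with FeCl3. Over control, 457 of the 507 were called higher with ZnO and 492 with Fe2O3, where 30.1% and 35.6% of all models were. The choice of the 507 itself puts each particle above the salt of its metal. That favours calls above control with the particles, so these counts describe the set only. With ZnSO4, 108 were called higher and 138 lower, against 22.2% and 35.6% of all models, and with FeCl3 172 were higher and 27 lower, against 20.5% and 23.4%. In the 138, the medians were 0.71 with ZnO, -0.65 with ZnSO4, 0.83 with Fe2O3 and 0.57 with FeCl3. The choice of the 138 itself puts ZnSO4 below ZnO and the iron exposures near each other, so these medians describe the set only. All exposures share the control libraries, so the 4 medians of a set are given side by side and not related to each other by a test.

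The 789 models at least 2-fold lower with ZnO divided in another way. In iron, 484 (61.3%) were also lower with the particles, 165 were not called, and 140 (17.7%) were higher with Fe2O3 than with FeCl3. Of all models tested, 27.7% were lower and 27.5% higher with Fe2O3, so the 140 were a smaller share than among all models. The 484 stood at a median of -2.30 with ZnO, -0.79 with ZnSO4, -2.45 with Fe2O3 and -1.11 with FeCl3 over control. All 4 medians were negative, and those of the particles were further from 0. The choice of the 484 itself puts each particle below the salt of its metal, so that order describes the set only. It also favours calls below control with the particles. Called lower than control were 478 of the 484 with ZnO, 350 with ZnSO4, 479 with Fe2O3 and 381 with FeCl3, against 33.7, 35.6, 35.7 and 23.4% of all models. The 165 had medians of -0.58 with ZnO, 0.70 with ZnSO4, -0.49 with Fe2O3 and -0.62 with FeCl3. The choice of the 165 itself puts ZnSO4 above ZnO and the iron exposures near each other, so these medians describe the set only. The 140 had medians of 1.36 with ZnO, 3.10 with ZnSO4, 1.33 with Fe2O3 and -0.49 with FeCl3. The choice of the 140 fixes that ZnSO4 lay above ZnO and Fe2O3 above FeCl3. The control libraries differed in this set, which touches all 4 medians: their median deviation from the mean of all libraries, in log2 units, was -1.67, -1.34 and -0.33, control replicate 3 being the highest. The interaction test called all 140, where 28.3% of all models were called (14.4% with the zinc difference above the iron one and 13.9% below). Opposite calls in zinc and iron chose the 140, which favours such a call, so this count describes the set only. Called higher than control were 93 of the 140 with ZnO and 138 with ZnSO4, against 30.1% of all models with ZnO and 22.2% with ZnSO4.

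**Figure D3:**
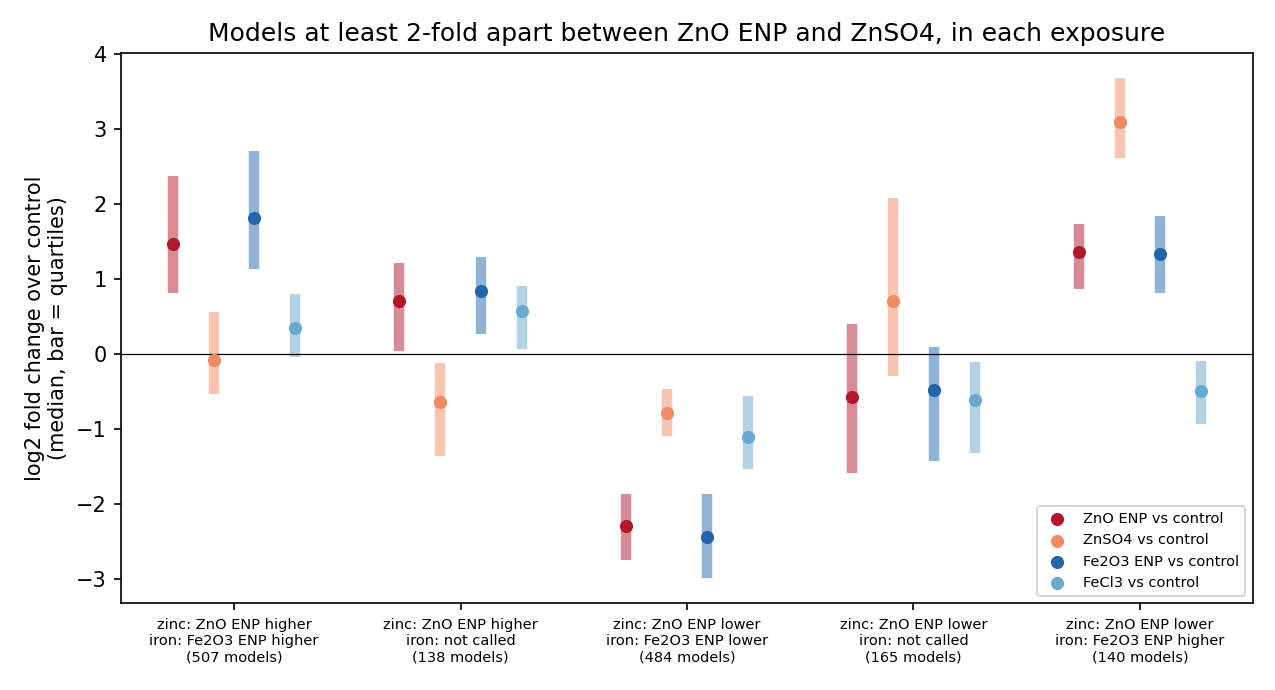
Median log2 fold change over control (points) with quartiles (bars) for each exposure, in models at least 2-fold apart between ZnO ENP and ZnSO4, divided by their call between Fe2O3 ENP and FeCl3. The medians of ZnO and ZnSO4 are 1.47 and -0.085 in the set at the left and 1.36 and 3.10 in the set at the right. The set of 10 models higher with ZnO and lower with Fe2O3 is not drawn.

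The division of the models higher with ZnO was alike under other scalings in its proportions, less so in its counts. With total counts only, 324 of the 430 models at least 2-fold higher with ZnO were called higher in iron, and the count was 335 of 424 with control replicate 1 as the TMM reference. The set of 140, of 789 models at least 2-fold lower, was 149 of 1004 with total counts only, a smaller share. Without any 1 of the zinc libraries it was 132 to 185, where 929 to 1035 models were at least 2-fold lower. The set of 140 held mostly scarce transcripts, with a median of 3.71 CPM over the 15 libraries. Requiring a mean of at least 5 CPM left 69 of 550 models, again a smaller share. The median deviation of this set was 2.48 in ZnSO4 replicate 1 and 2.00 in ZnSO4 replicate 3, with ZnSO4 replicate 2 lower than both.

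The salt libraries were the ones that stood outside the range of the other 12 more often. ZnSO4 was the lowest group, all 3 libraries below the other 12, for 964 models (9.63%), and the highest for 607 (6.06%). ZnO was the lowest for 266 models (2.66%) and the highest for 238 (2.38%). Among the 655 models 2-fold higher with ZnO, the ZnO libraries were the 3 highest for 62 (9.47%) and the ZnSO4 libraries the 3 lowest for 192 (29.3%). Among the 789 lower ones, ZnO libraries were the 3 lowest for 65 (8.24%) and ZnSO4 libraries the 3 highest for 220 (27.9%). Of the set of 140, ZnSO4 was highest for 127. The choice of the 140 puts ZnO below ZnSO4 and FeCl3 below Fe2O3, which favours this count. The choice of the 655 and of the 789 favours ZnO and ZnSO4 libraries at opposite ends. All counts of lowest and highest libraries use TMM-scaled levels, on which the median model of ZnSO4 was at -0.23 against control.

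Few models were close to silent in 1 zinc exposure and well expressed in the other. With a mean under 1 CPM taken as near-silent and at least 5 CPM as expressed, 8 models were near-silent with ZnSO4 and expressed with ZnO, at 5.38 to 13.9 CPM with ZnO and 0.467 to 0.982 CPM with ZnSO4. Their medians were 6.64 CPM with Fe2O3, 1.46 CPM with FeCl3 and 1.09 CPM in controls. The reverse held for 6 models, at 0.833 to 0.997 CPM with ZnO and 5.15 to 5.89 CPM with ZnSO4, with medians of 0.751 CPM with Fe2O3, 2.70 CPM with FeCl3 and 7.53 CPM in controls. No tested model (0) was without reads in all libraries of either zinc group.

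The 10 and the 100 most abundant models took a larger share of each ZnO library than of any ZnSO4 library. The 10 most abundant models of each library held 9.06, 9.25 and 9.24% of its counts with ZnO, against 5.71, 6.37 and 5.49% with ZnSO4. The 100 most abundant held 29.8 ± 0.291% with ZnO and 24.3 ± 1.19% with ZnSO4 (SD, n = 3 each). For both measures the exact two-sided permutation test gave p = 0.1, the smallest that 3 against 3 libraries allow. The 1000 most abundant held 69.2 ± 0.224% with ZnO and 67.4 ± 2.10% with ZnSO4, with overlapping libraries (exact two-sided permutation test, p = 0.2). With Fe2O3 the 10 most abundant held 9.60 ± 0.379%, with FeCl3 7.25 ± 0.292%, and in controls 7.64 ± 1.08% (SD, n = 3 each), so ZnSO4 was the lowest of the 5 groups. These shares do not depend on scaling between libraries.

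Of the 10 most abundant models in ZnO cultures, 8 were called higher than with ZnSO4 and none (0) lower, against 22.6% and 20.4% of all models. Picking by the level in ZnO favours that direction, and of the 10 most abundant in ZnSO4 cultures 4 were called higher with ZnO and 1 lower. The first averaged 16832 CPM with ZnO and 6549 CPM with ZnSO4, a log2 fold change of 1.36 (SE 0.185), with 12970 CPM in controls. The fifth averaged 7128 CPM with ZnO and 1370 CPM with ZnSO4, against 1533 CPM in controls, a log2 fold change of 2.38 (SE 0.170). By these means the first stood above control with ZnO and below it with the salt, while the fifth was near control with the salt. No test against control is given for these models. The 10 most abundant models of the 2 groups had 6 in common, and the 100 most abundant had 79.

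**Figure D4:**
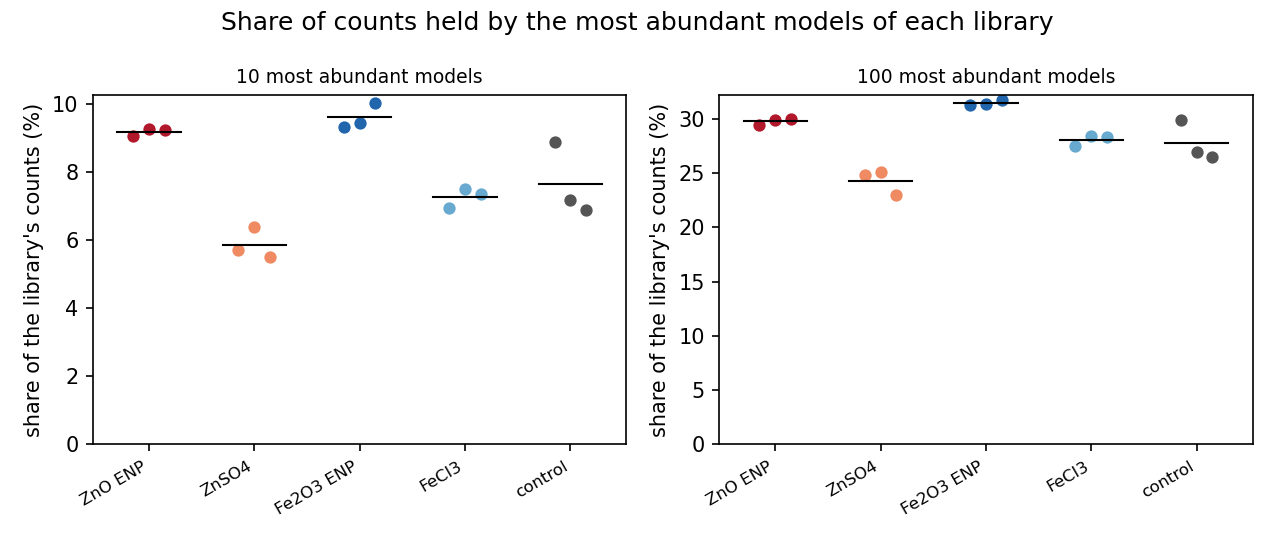
Share of each library's counts, in %, held by its 10 and its 100 most abundant models, 1 point per library with a bar at the group mean. The ZnO libraries sit at 9.06 to 9.25% for 10 models and the ZnSO4 libraries at 5.49 to 6.37%.

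The models 2-fold apart differed in how much of the library they made up. Those 2-fold higher with ZnO held 16.4, 16.3 and 16.7% of the counts in ZnO libraries, against 6.19, 7.16 and 7.08% in ZnSO4 libraries. Those 2-fold lower held 1.82, 1.84 and 1.95% in ZnO libraries, against 5.44, 5.03 and 5.69% in ZnSO4 libraries. The first group was the more abundant although it had fewer models, with a median of 18.3 CPM over 15 libraries against 9.57 CPM for the second. Since the difference chose these models, the shares describe its size only.

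Models at the head of the deposited table behaved apart from the rest. The table was divided into blocks of 200 rows, and the boundary after the first 800 rows was chosen after these values were seen. In the first 4 blocks the median log2 fold change of ZnO over ZnSO4 was between -0.24 and -0.18, and in the 48 later blocks between -0.08 and 0.17. Only 7.61% of the 788 tested models among the first 800 rows were called higher with ZnO and 19.2% lower, while the 9224 others had 23.9% higher and 20.6% lower. Of the 12 identifiers that carry a chromosome label, 8 lie in these rows and all 8 read Chr_01. The labels do not state that the rows follow the genome, so no model was given a chromosome here.

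These rows hold abundant transcripts, with a median of 212 CPM against 17.8 CPM for the others. Within the highest of the 5 abundance classes, the 552 models from the first 800 rows had a median log2 fold change of -0.25 and the 1451 others 0.22. Together the first 800 rows held 27.3 ± 0.61% of the counts with ZnO and 33.7 ± 2.83% with ZnSO4 (SD, n = 3 each). Each ZnO library lay below each ZnSO4 library (exact two-sided permutation test, p = 0.1, the smallest possible). The boundary was chosen after the block medians of the same libraries were seen, which favours such a separation. Control libraries held 30.2 to 38.0%, and libraries with Fe2O3 18.3 to 24.4%, against 22.5 to 28.9% with FeCl3.

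The size of this difference varied between libraries. Taken as the median log2 fold change of the first 800 rows minus that of the others, it was -0.27, and it became -0.14 without ZnSO4 replicate 1 and -0.39 without ZnSO4 replicate 3. Measured instead as a median deviation over models within each library, ZnSO4 replicate 3, at -0.12, fell within the range of the ZnO libraries, -0.17 to -0.092, and the exact two-sided permutation test gave p = 0.2. The TMM factor was 1.34 in ZnSO4 replicate 3 and 1.09 in ZnSO4 replicate 1, whose share of these rows was larger. In iron the same 4 blocks had medians of -0.24 to -0.19 for Fe2O3 over FeCl3. The last block, rows 10201 to 10300, was at -0.40 in iron and -0.08 in zinc.

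**Figure D5:**
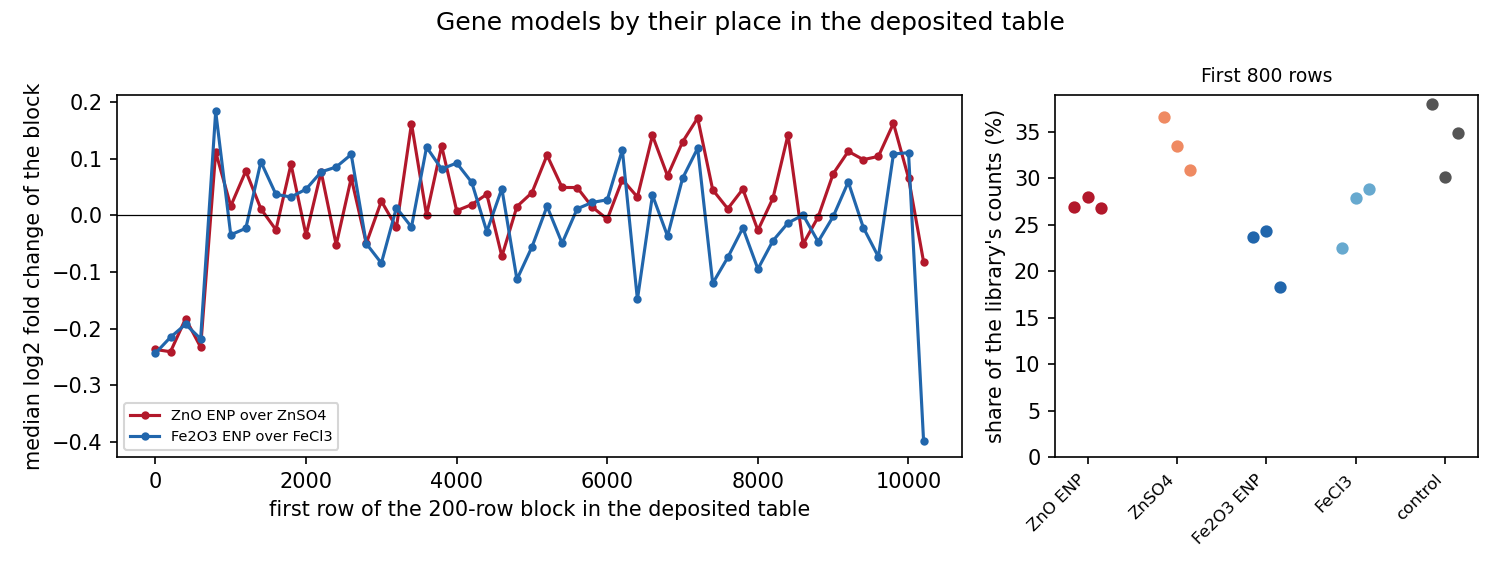
Left, median log2 fold change in 200-row blocks of the deposited table (horizontal axis, first row of the block) for ZnO ENP over ZnSO4 and Fe2O3 ENP over FeCl3; right, share of each library's counts in the first 800 rows, 1 point per library. The first 4 blocks lie at -0.24 to -0.18 for zinc, and the share averages 27.3% with ZnO and 33.7% with ZnSO4.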

How the data were processed

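Counts per gene model were deposited as 1 table of whole numbers for 15 libraries, with no normalization visible. Per the submitters' processing notes STAR, RSEM 1.3.0, Trim Galore 0.4.0 and CASAVA 2.17 were used, while the table's name says HTSeq. The genome build is not given in the sources used here, nor the annotation. Per the labels, libraries were poly(A)-selected. Rows sharing an identifier (6) stayed apart, and 7 of 27 tested models marked as duplicates were called, with reads that copies may share.

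In R 4.3.3, edgeR 4.0.16 removed 288 models (filterByExpr, minimum count 10), computed TMM factors, and fitted the 5 groups in 1 quasi-likelihood model (Benjamini-Hochberg, threshold 0.05). Each SE is the size of the log2 fold change over the root of its F value. Alternatives used DESeq2 1.42.0, limma 3.58.1 (voom), other scalings and filters. Steps were tested on simulated data. Members, lists and tests were chosen with earlier results of these data known. The printed models were the 2 largest differences each way by the stated ranking.

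Deviations from group means correlated at 0.27, 0.21 and 0.28 between ZnO and ZnSO4 libraries of the same number, so a fit with the number as a block was among the alternatives; the reported fit has no such term, and the labels do not say what a number stands for.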

Additional observations from a re-analysis of the deposited data

Results flagged for a closer look

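The difference between particle and salt was not alike in zinc and iron for some models, by a test of the difference itself. For wlab.2060.1 the zinc difference minus the iron difference was -4.97 on the log2 scale (SE 0.980, edgeR adjusted p = 0.00178). ZnO averaged 2.93 CPM against 31.2 CPM with ZnSO4, and Fe2O3 averaged 1.35 CPM against 0.454 CPM with FeCl3. For wlab.248247.1 the zinc difference minus the iron difference was -4.86 (SE 0.560, edgeR adjusted p = 2.62e-05), ZnO being below ZnSO4 and Fe2O3 above FeCl3. Both models were picked for the size of their zinc difference, which is part of this test and favours a call.

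The same test called all 140 models that were at least 2-fold lower with ZnO than with ZnSO4 and higher with Fe2O3 than with FeCl3. It also called all 10 models with the opposite pattern, at least 2-fold higher with ZnO and lower with Fe2O3, whose median log2 fold change was 1.28 in zinc and -1.02 in iron. Both sets were picked by opposite calls, which favours a called interaction.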

How the results depend on the processing

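The total of 4308 called models ran from 3473 to 3832 without any 1 zinc library and was 5634 with only the 6 zinc libraries. The share called higher depended on scaling: 1287 with total counts only and 1471 with TMM factors computed without the first 800 rows, where 3016 were lower. Without any 1 zinc library it was 1296 to 1512, with 2164 to 2335 lower; edgeR then took control replicate 2 as its TMM reference in place of Fe2O3 replicate 3. Leaving out each of the 15 libraries with the original factors kept gave 1835 to 2421 higher and 1600 to 2204 lower. Without any 1 of the 9 other libraries the count was 1787 to 2388.

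Models at least 2-fold higher numbered 430 with total counts only, 435 with a mean of at least 5 CPM, 413 with TMM without the first 800 rows, 424 and 436 with control replicates 1 and 3 as reference, and 429 to 520 without any 1 zinc library (472 to 667 without another). A test against 1.5-fold (glmTreat) called 622 higher and 735 lower. At an adjusted p under 0.01 the interaction called 1573 models instead of 2829. The 4 printed models were called in the same direction under every alternative that kept them; wlab.248247.1 fell to the filter at 5 CPM. The replicate block over all 15 libraries called 4430 models, 2352 higher and 2078 lower, and held 2735 within 1.5-fold. With only the zinc libraries, 3716 were held without the block and 4152 with it, and 5634 were called without it and 6231 with it, so the block itself changed none of these counts by more than 1.5 times. The 4-fold lower count was 232 without ZnSO4 replicate 2. Centring sets the median to 0 by construction, so it gave no median. The fit of only zinc libraries gave no interaction. Models under 5 CPM limit what can be called either way. Alternatives with TMM references, factors kept, the zinc-only block and the first 800 rows left out were chosen after seeing the data.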
